A study of Mus musculus with 30 samples.

Results

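The hippocampus was compared with the rest of the brain of the same animals in aged 3×TgAD mice. This comparison took 10 of the 30 arrays of the series, which came from 5 of its 15 mice, and the members were found by the genotype label 3xTgAD and joined by the mouse number at the end of each label. Mice 1 and 2 were female and mice 3, 4 and 5 were male. The labels give all mice the strain C57BL/6j and an age of 15 to 20 months. Each animal was perfused with PBS after CO2 euthanasia, and its hippocampus and its brain were dissected and put on separate Agilent 1-colour arrays. The second tissue, called brain in the labels and here, is taken to be the brain without the hippocampus. According to the methods, 3×TgAD mice carry human APP and tau transgenes with familial disease mutations, in a line described as congenic. From general knowledge of this line, the Thy1 promoter drives both transgenes, so that they act in neurons, and both were inserted at a single site. The comparison groups were 3 WT females without these alleles and the 5 3×TgAD-BKO mice (label JHT_3xTgAD, 2 females and 3 males), which carry the same alleles and, in addition, a deletion of the immunoglobulin JH segments that leaves them without functional B cells. The remaining mice, 2 JHT females with this deletion and without the transgenes, entered the normalization and the fits over all mice and are compared with no group here. The labels give no treatment for any group.

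The hippocampus is the part of the brain in which this line is best known for plaque and tangle formation, and the subiculum and CA1 field are its main sites. Microglia are the resident macrophages of the brain and, around plaques, take on the disease-associated (DAM) state, in which Trem2 and its adaptor Tyrobp signal and homeostatic genes such as P2ry12 and Tmem119 are reduced. Astrocytes become reactive with rising Gfap and Serpina3n, and both cell types produce complement, which tags synapses for removal. In bulk tissue, fewer cells of a type and less RNA per cell cannot be told apart, and a regional difference between tissues of unequal neuronal makeup is present in healthy brains as well.

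Levels are given as log2 of the background-subtracted signal after quantile normalization, and a change is the mean over 5 mice of hippocampus minus brain on that scale, with its standard error (SE). Of 36717 genes and transcripts, 13744 passed an adjusted p of 0.05 in limma with the mouse as a block. In the hippocampus, 6417 were higher, which is 17.5% of those tested, and 7327 were lower, which is 20.0%. The counts of each list below are to be set beside these shares. Of the 13744, 293 were well above background on none of the 10 arrays. With each array scaled to its 75th percentile instead, 70.4% of the calls were higher against 46.7% here, and the median change of all genes moved from -0.0043 to 0.30. All directions below are therefore relative to the bulk of genes. A change of at least 1 log2 unit was seen for 1633 genes that were higher and 2045 that were lower. The 75th percentile of the intensities was 454 to 662 on the hippocampal arrays and 1032 to 1448 on the brain arrays, and 55.0 to 59.8% and 54.7 to 61.3% of probes, respectively, were well above background.

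All 5 hippocampi were on slide 1 and all 5 brains on slide 3, so that in this genotype the slide (with its hybridization and scan) and the tissue cannot be told apart. With all 30 arrays and the slide as a random block, 6944 genes passed the test, and with the slide as a fixed block 5765. Both fits hold 12 group means and no mouse block, so they leave out the pairing and take their spread from all groups. They thus differ from the main test in more than the slide. The slide terms of the fixed block rest on the 6 arrays of 3×TgAD-BKO males, the only groups spread over more than 1 slide. Among the glial genes described below, Tmem119, Cx3cr1, Selplg, Trem2, C1qa, C4b and Gfap turned from higher to lower under it, none past the threshold. The only slide with both tissues of one group was slide 2, which held the hippocampi of 3×TgAD-BKO males 8 and 9 and the brain of male 0. There, 10305 of the 13743 called genes with a value (74.98%) had the direction seen in 3×TgAD, against 52.7% of those not called. The brain of male 0 itself stood apart in neutrophil transcripts, with S100a8 at 13.73 against 9.62 to 12.61 in the other 4 brains of its genotype, and in C3, at 12.89 against 9.83 to 11.50.

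The tissue labels were checked against genes that mark brain regions. Of 10 dentate gyrus genes, 9 were higher in the hippocampus and 1 was lower, with a median change of 1.05. Of 15 genes of the CA fields or the whole hippocampus, 12 were higher and 1 lower, with a median of 1.54. All 13 striatal genes, all 8 cerebellar genes, all 11 genes of monoamine, cholinergic and glycinergic neurons and 8 of 9 hypothalamic genes were lower. The hippocampus of mouse 4 was the exception in another respect, since choroid plexus and MHC class II transcripts were high in it, and results that rest on this array are given with and without it. Over 17679 genes, the regional difference of each mouse correlated with the mean of the other 4 at 0.709 for mouse 4 and at 0.778 to 0.826 for the others.

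Of 18 homeostatic genes of microglia, 8 rose in the hippocampus, 1 fell and 9 did not pass the test, with a median change of 0.25 against -0.0043 for all genes. With 75th percentile scaling the median was 0.28 against 0.30 for all genes. In the fit with a random slide block 3 rose and none fell, and with the slide as a fixed block the median was -0.34 and 1 rose and 2 fell. Tmem119, a surface protein of resident microglia, read 11.23, 11.07, 11.31, 11.31 and 11.29 in the hippocampi of mice 1 to 5 and 10.55, 10.69, 10.70, 10.79 and 10.68 in their brains. Every hippocampus was above every brain, and the change was 0.56 (SE 0.06, adjusted p = 0.00212). Cx3cr1, the receptor for the neuronal chemokine fractalkine, read 13.03, 12.91, 12.98, 12.26 and 12.53 against 12.59, 12.45, 12.53, 12.18 and 12.20. The tissues overlapped here, because the hippocampi of mice 4 and 5 lay near the brains, although each mouse was higher in its own hippocampus (change 0.35, SE 0.07, adjusted p = 0.0175). P2ry12, the ADP receptor that guides microglial processes, read 11.10, 10.91, 10.77, 10.70 and 10.50 against 10.83, 10.92, 10.88, 10.77 and 10.76. The hippocampus of mouse 1 was above all brains and those of mice 4 and 5 were below all of them, and the change of -0.04 (SE 0.09, adjusted p = 0.759) did not pass the test. The largest rises were those of Fcrls (0.95, SE 0.10), a scavenger receptor-like gene of microglia, Itgam (0.83, SE 0.08), the integrin CD11b, and Selplg (0.64, SE 0.08), while Olfml3, a secreted matrix protein of microglia, fell by 0.74 (SE 0.13, adjusted p = 0.0103). With the slide as a random block the adjusted p was 0.00617 for Itgam and 0.00778 for Fcrls, but 0.187 for Tmem119 and 0.607 for Cx3cr1.

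**Figure D1:**
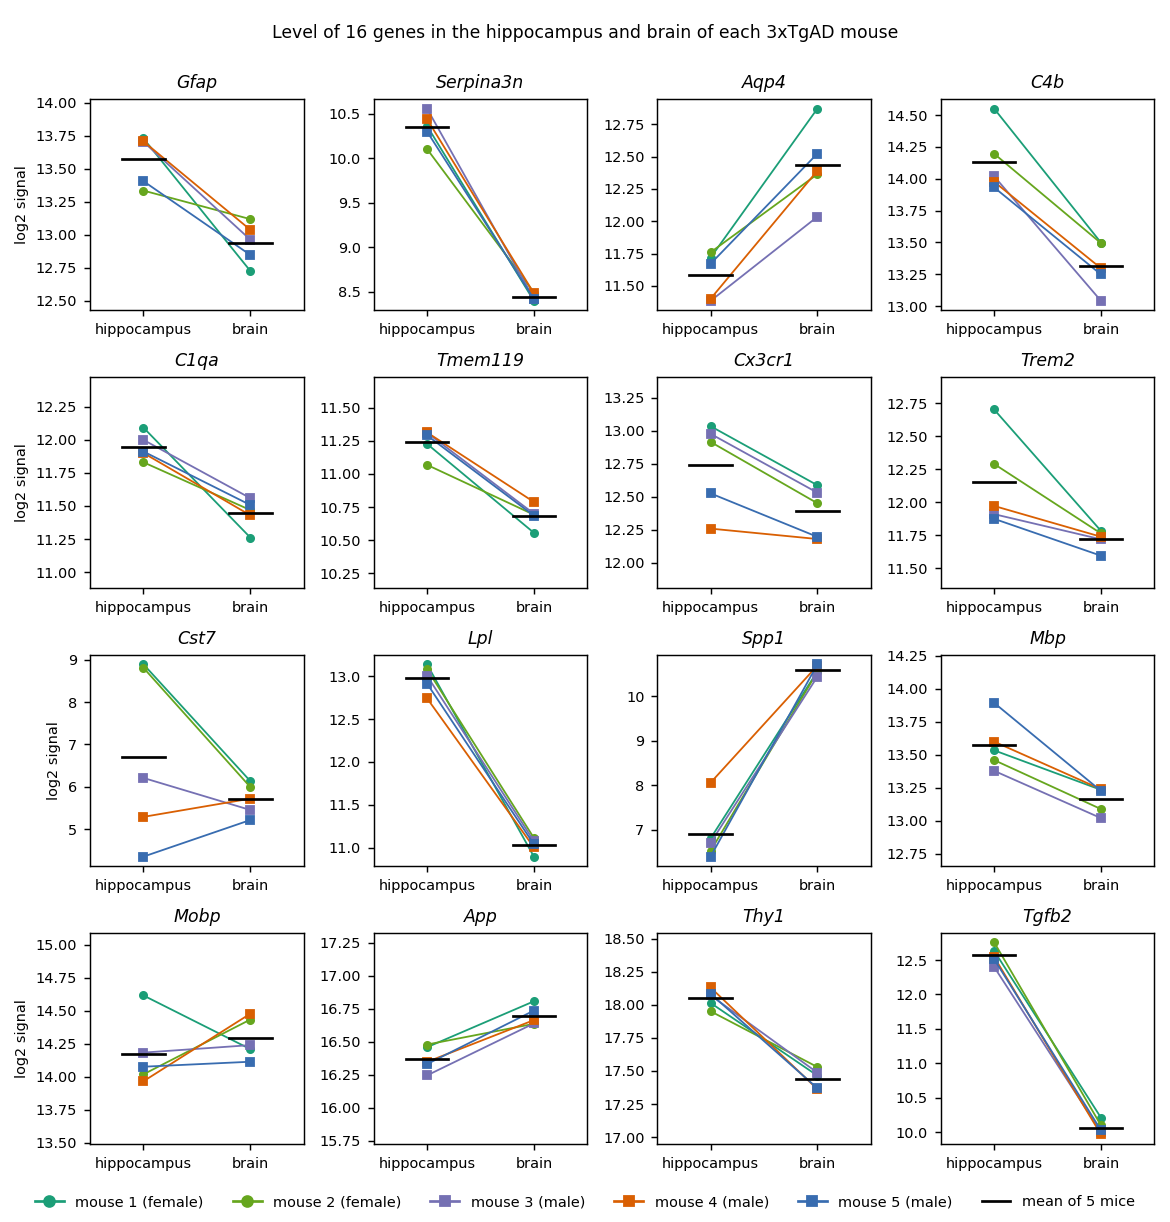
Log2 signal (vertical axis) of 16 glial, pathology and growth factor genes in the hippocampus and the brain of each 3×TgAD mouse, with lines joining the tissues of a mouse, circles for females, squares for males and a black bar for the mean of 5 mice. Gfap, Serpina3n, C4b, C1qa, Tmem119, Trem2, Lpl, Mbp, Thy1 and Tgfb2 have every hippocampus above every brain, Aqp4, Spp1 and App have the reverse, and Cst7 is high only in the hippocampi of the 2 females.

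DAM and lysosomal genes were called in both directions, with shares near the 17.5% higher and 20.0% lower of all genes. Of 30 such genes, 4 rose, 8 fell and 18 did not pass the test. The median change was -0.03, and 0.03 with 75th percentile scaling, where that of all genes was 0.30. Of the 8 that fell, 1, Saa3, was well above background on no array. Under a random slide block 2 rose and 5 fell. Trem2, the lipid-sensing receptor on which the DAM state depends, read 12.70, 12.29, 11.91, 11.97 and 11.88 in the hippocampi and 11.78, 11.77, 11.72, 11.74 and 11.60 in the brains. The hippocampi of the 2 females were the highest, no value overlapped, and the change was 0.43 (SE 0.12, adjusted p = 0.0479). Without mouse 4 the change was 0.48 with an adjusted p of 0.0765, and with the slide as a random block it was 0.34 with an adjusted p of 0.261. Tyrobp, its signalling adaptor, read 12.80, 12.39, 12.28, 12.28 and 12.01 against 12.25, 12.34, 12.26, 12.19 and 12.15. Apart from mouse 1, its tissues lay close together (change 0.12, SE 0.11, adjusted p = 0.456). Apoe, the lipid carrier and main genetic risk factor for late-onset disease, read 17.38, 17.22, 17.42, 17.60 and 17.40 against 17.32, 17.43, 17.52, 17.49 and 17.40. The tissues overlapped and the change was -0.03 (SE 0.06, adjusted p = 0.76). With 75th percentile scaling it was 0.44 with an adjusted p of 0.0121, where the median of all genes was 0.30.

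Lpl and Spp1 gave the largest changes of the DAM list, in opposite directions. Lpl, the lipoprotein lipase that neurons and activated microglia both express, read 13.14, 13.08, 13.004, 12.74 and 12.91 in the hippocampi and 10.90, 11.11, 11.08, 11.004 and 11.04 in the brains. It was thus 3.86-fold higher in the hippocampus (change 1.95, SE 0.08, adjusted p = 0.000232). Spp1, the secreted protein osteopontin, which some neurons outside the hippocampus also make, read 6.80, 6.52, 6.70, 8.06 and 6.39 against 10.56, 10.55, 10.44, 10.69 and 10.72. It fell by 3.70 (SE 0.25, adjusted p = 0.000767), and mouse 4 was the highest of the hippocampi. With the slide as a random block, both stayed past the threshold (adjusted p = 0.0018 and 3.49e-06). Igf1 and Ch25h each fell by 0.89 (SE 0.12 and 0.17), and the lysosomal proteases Ctsb and Ctsl, named after their values were seen, fell by 0.47 and 0.70.

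Cst7 and Itgax differed more among the hippocampi than between the tissues. Cst7, which encodes the protease inhibitor cystatin F and marks DAM, read 8.89, 8.81, 6.21, 5.29 and 4.36 in the hippocampi and 6.14, 6.00, 5.46, 5.72 and 5.22 in the brains. The hippocampi of the 2 females were far above all other arrays and the males overlapped, so that the change of 1.01 (SE 0.68, adjusted p = 0.315) did not pass the test, with 4 of 5 arrays well above background in each tissue. Itgax, the integrin CD11c, read 6.01, 5.83, 4.49, 3.92 and 3.59 against 5.59, 5.19, 4.69, 5.14 and 4.33. Here too the females were the highest in the hippocampus, the change was -0.22 (SE 0.31, adjusted p = 0.609), and 3 hippocampi and 4 brains were well above background.

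Within complement, the C1q chains and C4b rose, and C2, Cfb and some inhibitors of the cascade fell. The inhibitor Cd55, named after its value was seen, did not pass the test (change -0.11, SE 0.18, adjusted p = 0.676). Of 16 genes, 4 rose, 5 fell and 7 did not pass the test (median change -0.24), and without mouse 4 there were 4 and 7. Under a random slide block none rose and 3 fell. C1qa, a chain of the C1q recognition complex made by microglia, read 12.09, 11.83, 11.9996, 11.90 and 11.91 in the hippocampi and 11.26, 11.47, 11.56, 11.43 and 11.51 in the brains. All hippocampi were above all brains (change 0.50, SE 0.08, adjusted p = 0.00848), and the partner chains C1qc and C1qb, named after their values were seen, rose by 0.48 and 0.37. C4b, the complement component cleaved next, read 14.55, 14.20, 14.02, 13.98 and 13.93 against 13.50, 13.49, 13.04, 13.30 and 13.25. It was 1.76-fold higher without overlap (change 0.82, SE 0.08, adjusted p = 0.0018). With the slide as a random block, the calls for C1qa and C4b were lost (adjusted p = 0.375 and 0.111). On slide 2 the same-slide difference in 3×TgAD-BKO males was -0.59 for C1qa and 0.0067 for C4b. Both rest on the brain of male 0, where C1qa was 12.75 against 11.71 to 12.77 in the other 4 brains of its genotype. C2, which binds to C4b, fell by 1.65 (SE 0.19, adjusted p = 0.00287), Cfb of the alternative pathway by 1.41 (SE 0.33, with 1 of 5 hippocampi well above background), and the inhibitors Serping1 and Cd59a each by 1.12 (SE 0.19 and 0.27).

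Most astrocyte genes that changed were lower in the hippocampus. Of 20 identity genes, 2 rose, 10 fell and 8 did not pass the test (median change -0.25), and with the slide as a random block 1 rose and 5 fell. Aqp4, the water channel of astrocytic endfeet, read 11.72, 11.76, 11.38, 11.40 and 11.67 in the hippocampi and 12.87, 12.36, 12.04, 12.39 and 12.52 in the brains. No hippocampus reached the lowest brain, and Aqp4 fell by 0.85 (SE 0.10, adjusted p = 0.00281). Agt, the precursor of angiotensin, fell by 1.47 (SE 0.17), S100b, a calcium-binding protein, by 1.02 (SE 0.07) and Slc6a11, a GABA transporter, by 0.995 (SE 0.16). The main glutamate transporter Slc1a2 rose by 0.99 (SE 0.08, adjusted p = 0.0011). With the slide as a random block the adjusted p was 0.00236 for Aqp4, 0.000448 for Agt and 5.35e-05 for Slc1a2. S100b and Slc6a11 turned to 0.57 and 0.78 with the slide as a fixed block.

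Reactive astrocyte genes were called in both directions. Of 27, 6 rose, 9 fell and 12 did not pass the test, beside 17.5% higher and 20.0% lower among all genes. The median change was -0.46, and -0.089 with 75th percentile scaling, against 0.30 for all genes. With the slide as a random block 3 rose and 7 fell. Serpina3n, a protease inhibitor induced in reactive astrocytes, read 10.36, 10.10, 10.56, 10.44 and 10.30 in the hippocampi and 8.398, 8.49, 8.42, 8.48 and 8.42 in the brains. The gap was wide and even over all mice, and it was 3.75-fold higher (change 1.91, SE 0.08, adjusted p = 0.000256; 0.00231 with the slide as a random block). Gfap, the intermediate filament protein of astrocytes, read 13.73, 13.33, 13.70, 13.71 and 13.41 against 12.73, 13.12, 12.96, 13.04 and 12.85. The tissues did not overlap, but the difference within mice ranged from 0.22 in mouse 2 to 1.002 in mouse 1 (change 0.64, SE 0.12, adjusted p = 0.0122). Its call was lost with the slide as a random block (adjusted p = 0.639), and the same-slide difference in 3×TgAD-BKO males was -0.49. That difference rests on the brain of male 0, where Gfap was 13.56 against 12.92 to 13.55 in the other 4 brains of its genotype. B3gnt5, a glycosyltransferase, read 4.26, 4.49, 2.95, 4.56 and 5.10 against 8.60, 8.14, 8.19, 8.20 and 8.33, with only 1 hippocampus well above background. It fell by 4.02 (SE 0.31, adjusted p = 0.00102), followed by Timp1 (2.16, SE 0.31) and S100a10 (1.26, SE 0.10).

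Oligodendrocyte genes that changed were mostly lower, with Mbp as the exception. Of 22 genes, 1 rose, 10 fell and 11 did not pass the test (median change -0.09, and 0.011 in the deposited scores), and with the slide as a random block 1 rose and 6 fell. Mbp, a structural protein of compact myelin, read 13.53, 13.46, 13.38, 13.60 and 13.89 in the hippocampi and 13.23, 13.09, 13.02, 13.24 and 13.23 in the brains. It rose by 0.41 (SE 0.07, adjusted p = 0.00858) without overlap, and mouse 5 was the highest. Mobp, another myelin protein, read 14.62, 14.02, 14.18, 13.97 and 14.08 against 14.21, 14.43, 14.24, 14.48 and 14.11 and overlapped (change -0.12, SE 0.15, adjusted p = 0.554). Mag, the adhesion protein next to the axon, fell by 0.83 (SE 0.15), Hapln2, a link protein of nodes, by 0.82 (SE 0.11) and Aspa by 0.69 (SE 0.12). Of 9 oligodendrocyte precursor genes, 4 rose and 1 fell (median change 0.14). With the slide as a random block the counts were 2 and 1, and as a fixed block 0 and 3. Cspg4, the proteoglycan NG2, rose by 1.38 (SE 0.15) and Lhfpl3 fell by 1.53 (SE 0.05).

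Genes of amyloid and tau metabolism moved little as a group. Of 25, 4 rose, 6 fell and 15 did not pass the test, shares near those of all genes. The median change was -0.07, and 0.05 with 75th percentile scaling, against 0.30 for all genes. The balance turned with the scaling, to 7 higher and 4 lower with 75th percentile scaling and 9 higher and 3 lower in the deposited scores, and was 3 and 4 with the slide as a random block. App, the amyloid precursor, read 16.46, 16.48, 16.25, 16.35 and 16.33 in the hippocampi and 16.81, 16.64, 16.64, 16.66 and 16.74 in the brains. It fell by 0.32 (SE 0.05, adjusted p = 0.00872) without overlap, but the adjusted p was 0.628 with 75th percentile scaling and 0.162 with the slide as a random block, and the change was 0.058 in the deposited scores (adjusted p = 0.0406). Mapt, the tau gene, read 15.72, 15.81, 15.58, 15.57 and 15.72 against 15.71, 15.81, 15.69, 15.65 and 15.71, with a change of -0.04 (SE 0.04, adjusted p = 0.559). The probes are of the mouse genes, and whether they also bind transcripts of the human transgenes was not tested. Thy1, a neuronal surface protein whose promoter drives those transgenes, read 18.01, 17.95, 18.07, 18.13 and 18.08 against 17.46, 17.53, 17.49, 17.36 and 17.37. It was 1.52-fold higher in the hippocampus (change 0.61, SE 0.07, adjusted p = 0.00234; 0.00135 with the slide as a random block).

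Among enzymes and receptors of the pathway, Mme had the largest change. Mme encodes neprilysin, a protease that degrades amyloid peptide, and read 4.59, 3.61, 4.60, 5.19 and 3.84 in the hippocampi, of which 2 were well above background, and 6.74, 6.85, 7.15, 7.31 and 7.25 in the brains. It fell by 2.70 (SE 0.24, adjusted p = 0.00142). Gsk3b, a kinase of tau, rose by 0.65 (SE 0.07) and Sorl1, which sorts App away from cleavage, by 0.64 (SE 0.06). The secretases were less different: Aph1a and Psenen, named after their values were seen, fell by 0.49 and 0.35, and Bace1, chosen likewise, gave 0.16 (adjusted p = 0.12).

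Tgfb2 carried the largest change of the TGF-beta pathway. Of its 20 genes, 2 rose, 7 fell and 11 did not pass the test. The median change was -0.04, and 0.0066 with 75th percentile scaling, against 0.30 for all genes. With the slide as a random block 1 rose and 2 fell. Tgfb2, a ligand made by neurons and astrocytes, read 12.63, 12.76, 12.40, 12.55 and 12.51 in the hippocampi and 10.21, 10.10, 9.999, 9.97 and 10.03 in the brains. It was 5.70-fold higher in the hippocampus (change 2.51, SE 0.06, adjusted p = 7.4e-05) and stayed past the threshold with the slide as a random or a fixed block (3.25e-08 and 0.000393). Tgfb1, the ligand of microglia on which their homeostatic state depends, read 6.41, 6.14, 6.91, 7.05 and 6.65 against 6.50, 6.60, 6.82, 6.84 and 6.55. Its tissues overlapped, with a change of -0.03 (SE 0.11, adjusted p = 0.864). Tgfb3, the remaining ligand, fell by 0.59 (SE 0.06, adjusted p = 0.00171), but with the slide as a fixed block it was higher in the hippocampus and past the threshold (change 0.89, adjusted p = 0.00765). The latent binding protein Ltbp3 fell by 0.97 (SE 0.18) and the inhibitory Smad6 by 0.59 (SE 0.16).

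**Figure D2:**
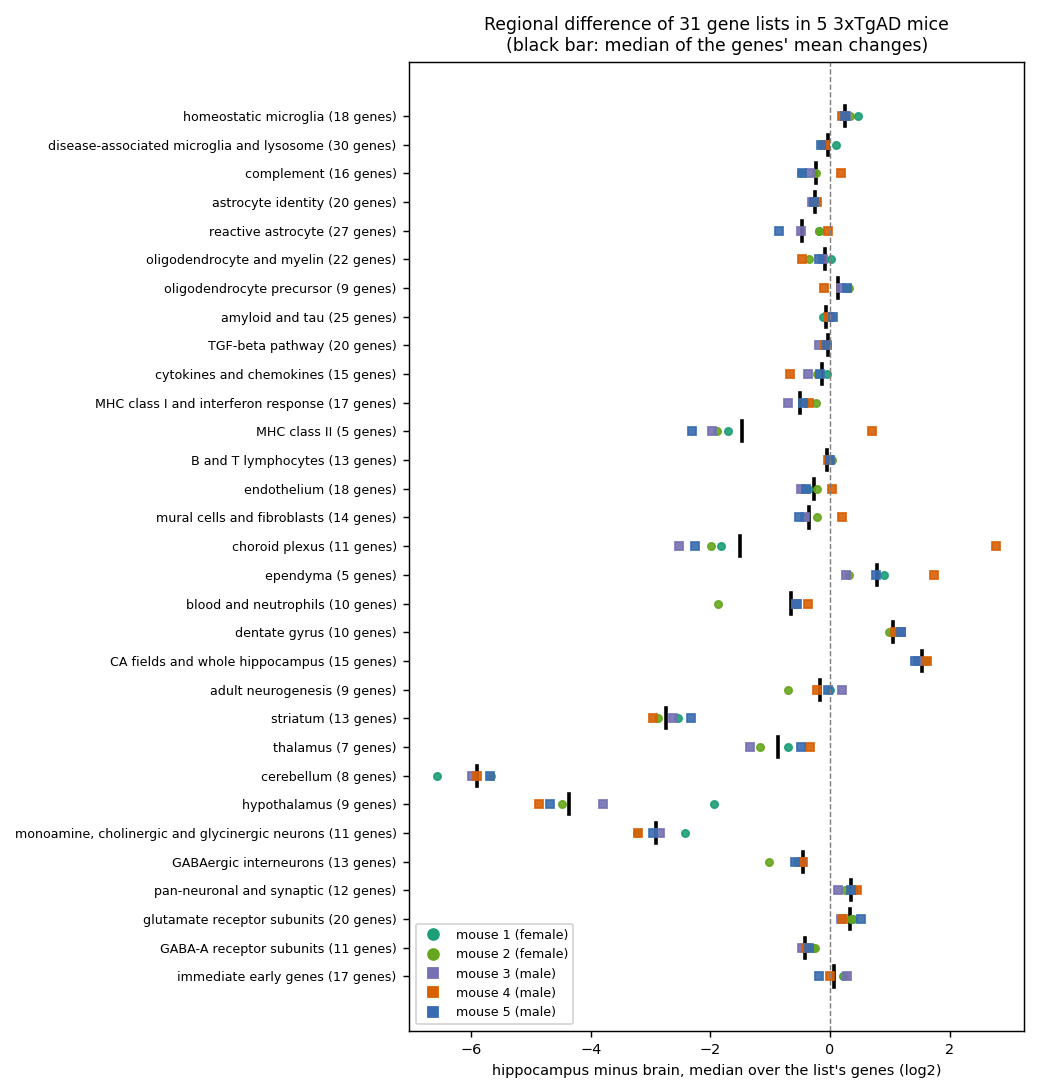
Median regional difference (hippocampus minus brain, log2, horizontal axis) over the genes of 31 lists in each 3×TgAD mouse (circles for females, squares for males), with a black bar at the median of the genes' mean changes. Glial lists lie within 1 log2 unit of 0 in every mouse, dentate gyrus and CA lists lie above 0, lists of other brain regions lie below it, and mouse 4 departs in the choroid plexus (2.78) and MHC class II (0.70) lists.

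Interferon genes that changed were mostly lower in the hippocampus, while the calls among inflammatory mediators were near the share of all genes. Of 15 cytokines and chemokines, 2 rose and 4 fell (median change -0.14), without mouse 4 there were 2 and 2, and with the slide as a random block 2 and 1. Ccl2, which attracts monocytes, fell by 1.71 (SE 0.29, adjusted p = 0.00918), Ccl12 by 0.67 (SE 0.15) and Ccl5 by 0.62 (SE 0.15). Il1b, an inflammasome product, was not well above background in any hippocampus and was at least 1.77-fold lower there (adjusted p = 0.00261). Of 17 genes of MHC class I and the interferon response, 1 rose and 10 fell (median change -0.50), and among the interferon-induced genes Ifit1 fell by 1.39 (SE 0.15), Ifit3 by 0.88 (SE 0.10), Usp18 by 0.76 (SE 0.13) and Isg15 by 0.70 (SE 0.13). In this list, none rose and 3 fell with the slide as a random block. Its same-slide median in 3×TgAD-BKO males was -1.01, a value that rests on the brain of male 0.

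Lymphocyte genes were detected in part, with 5 to 7 of 13 well above background on each array. Cd4 and Lck, which other brain cells may also express, were detected on all 10 and did not pass the test (changes 0.24 and 0.0054, both chosen after their values were seen). The B-cell genes Ms4a1 and Cd79a were well above background on none of the 10 arrays. Jchain, named after its value was seen, was well above background in 4 hippocampi and 5 brains and did not pass the test (change -1.21, SE 0.38, adjusted p = 0.0583). Cd3g of the T-cell receptor, Cd8b1 and Gzmb were well above background on none of the 10 arrays, and Cd8a in 1 brain and no hippocampus. Of the list, Cd3e, also of the T-cell receptor, rose by 0.65 (SE 0.10, adjusted p = 0.00753), Nkg7 of cytotoxic granules rose by 0.46 (SE 0.07), and Cd79b of the B-cell receptor fell by 0.49 (SE 0.13). None of these 3 calls held with the slide as a random block (adjusted p = 0.477, 0.193 and 0.430). With the slide as a fixed block Cd3e was lower in the hippocampus (change -1.08, adjusted p = 0.0347), and Nkg7 turned to -0.071 there and to -0.11 with the mean of a gene's probes.

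Choroid plexus transcripts depended on mouse 4. Ttr, the thyroxine carrier that the choroid plexus secretes, read 13.84, 14.44, 13.81, 18.28 and 12.93 in the hippocampi and 16.21, 16.66, 16.89, 16.35 and 16.86 in the brains. The hippocampus of mouse 4 was above all brains and the other 4 were below all of them, so that the change was -1.93 (SE 0.89, adjusted p = 0.159) over 5 mice and -2.90 (adjusted p = 0.00846) without mouse 4. The 11 genes of the list had a summed signal of 11688 to 26898 in the other 4 hippocampi, 390266 in that of mouse 4 and 86992 to 135110 in the brains. None of the 11 passed the test over 5 mice and 9 fell without mouse 4, when the median change went from -1.50 to -2.23. The channel genes Kcne2 and Kcnj13, named after their values were seen like the MHC class II genes that follow, then fell by 3.32 and 3.28.

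Of the 5 MHC class II genes, which serve antigen presentation by microglia, macrophages and B cells, 4 followed the same pattern. None passed the test over 5 mice (median change -1.47). The fifth, Ciita, the activator of the class II genes, was higher in every hippocampus, without mouse 4 standing apart (change 0.40, SE 0.17, adjusted p = 0.13). Without mouse 4, Cd74, the invariant chain, fell by 2.26 (adjusted p = 0.00545), H2-Ab1 by 1.98 (0.00228) and H2-Eb1 by 1.86 (0.00209). H2-Aa passed the test as well (0.00321), but among the hippocampi it was well above background in that of mouse 4 only, so that no size is given. The summed signal of the list was 609 to 712 in 4 hippocampi, 3847 in that of mouse 4 and 2108 to 2735 in the brains. What part choroid plexus or other tissue in the dissection of mouse 4 has in these values was not tested.

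**Figure D3:**
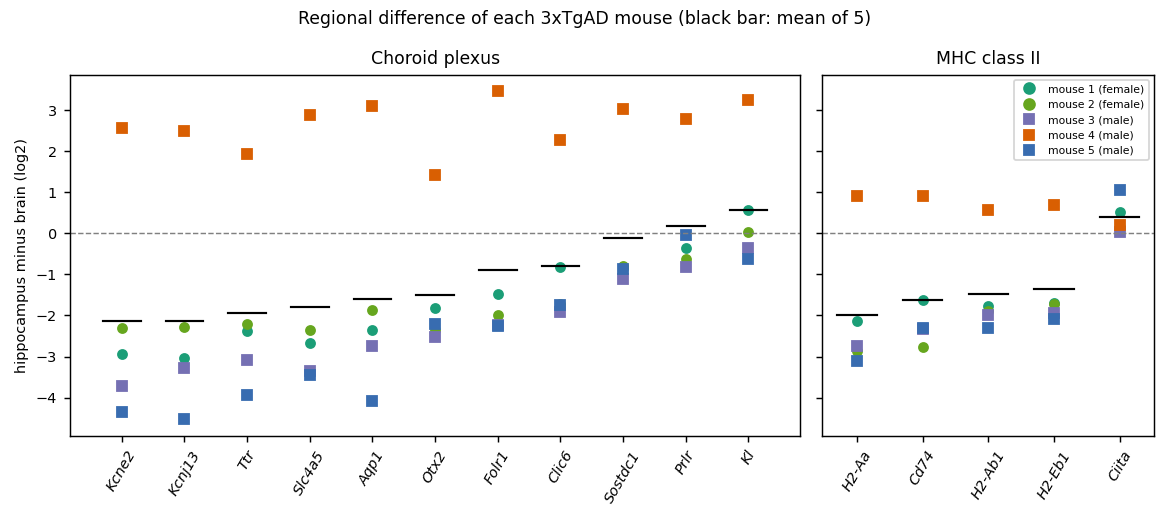
Regional difference (hippocampus minus brain, log2, vertical axis) of each 3×TgAD mouse for 11 choroid plexus genes (left) and 5 MHC class II genes (right), with a black bar for the mean of 5 mice. Mouse 4 (orange squares) lies above 0 for all 16 genes, and the other 4 mice lie below 0 for Ttr, Kcne2, Kcnj13, H2-Aa, Cd74, H2-Ab1 and H2-Eb1.

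Most vascular and blood genes that changed were lower in the hippocampus. Of 18 endothelial genes, 1 rose and 7 fell (median change -0.26), without mouse 4 there were 1 and 12, and with the slide as a random block 0 and 4. The gene that rose was the VEGF receptor Kdr (change 0.43, SE 0.08, adjusted p = 0.0117), named after its value was seen. Itm2a fell by 0.85 (SE 0.08), the endothelial factor Sox17 by 0.79 (SE 0.09), the glucose transporter Slc2a1 by 0.68 (SE 0.08) and the efflux pump Abcb1a by 0.65 (SE 0.07). The list summed to 61587 to 76454 in the hippocampi and 82745 to 96001 in the brains. Of 14 genes of mural cells and fibroblasts, 1 rose and 5 fell, with the collagens Col1a2 (-1.61, SE 0.25), Col1a1 (-1.47, SE 0.24) and Col3a1 (-1.44, SE 0.35) leading and Lum, a matrix proteoglycan, rising by 0.99 (SE 0.14), which turned to -0.65 with the slide as a fixed block. Of 10 blood genes, 6 fell, among them the neutrophil genes S100a8 by 1.46 (SE 0.33) and S100a9 by 1.41 (SE 0.33) and the haemoglobin genes Hba-a1 by 0.61 (SE 0.15) and Hbb-bt by 0.59 (SE 0.11), and without mouse 4 it was 4. None of the 10 passed the test with the slide as a random block, and in mural cells and fibroblasts none rose and 3 fell. Haemoglobin genes are near-identical copies and may share signal. These lists moved with the immune genes above, and their part in those differences was not tested. Of the other lists, each changed by at most 2 calls in a direction without mouse 4.

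Of 5 ependymal genes, the cilium genes Tmem212 and Ccdc153 rose by 1.5996 (SE 0.13) and 1.43 (SE 0.17), with a median of 0.79 for the list. Neither passed the test with the slide as a random block (adjusted p = 0.0514 and 0.267), and with the slide as a fixed block the median turned to -0.56 and Ccdc153 to -0.60.

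The largest changes of all lay outside the glial lists. The 10 largest rises were led by Slc9a4, a sodium-proton exchanger (4.96, SE 0.42), Dsp, the desmosomal protein desmoplakin of dentate granule cells (4.78, SE 0.26), Lct, lactase (4.53, SE 0.20), Spink8, a CA1-enriched inhibitor (4.23, SE 0.28) and Fibcd1, also of CA1 (4.08, SE 0.11). Lct read 12.72, 12.39, 12.56, 12.41 and 12.05 in the hippocampi and 8.41, 7.74, 7.43, 7.66 and 8.25 in the brains. C4bp, Avpr1b, the vasopressin receptor found in CA2, Mageb16 and Olfr550 were not well above background in any brain and were at least 5.98-, 6.33-, 5.28- and 4.64-fold higher in the hippocampus. Their place among the 10 rests on fitted changes against signal at background and is not established. Thsd4 (3.76, SE 0.15) completed them. Prox1, the factor that sets granule cell identity, rose by 2.54 (SE 0.15), C1ql2 of mossy fibre synapses by 3.15 (SE 0.15) and Neurod6 by 2.83 (SE 0.14). Coch was the only CA list gene to fall (-3.61, SE 0.34).

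**Figure D4:**
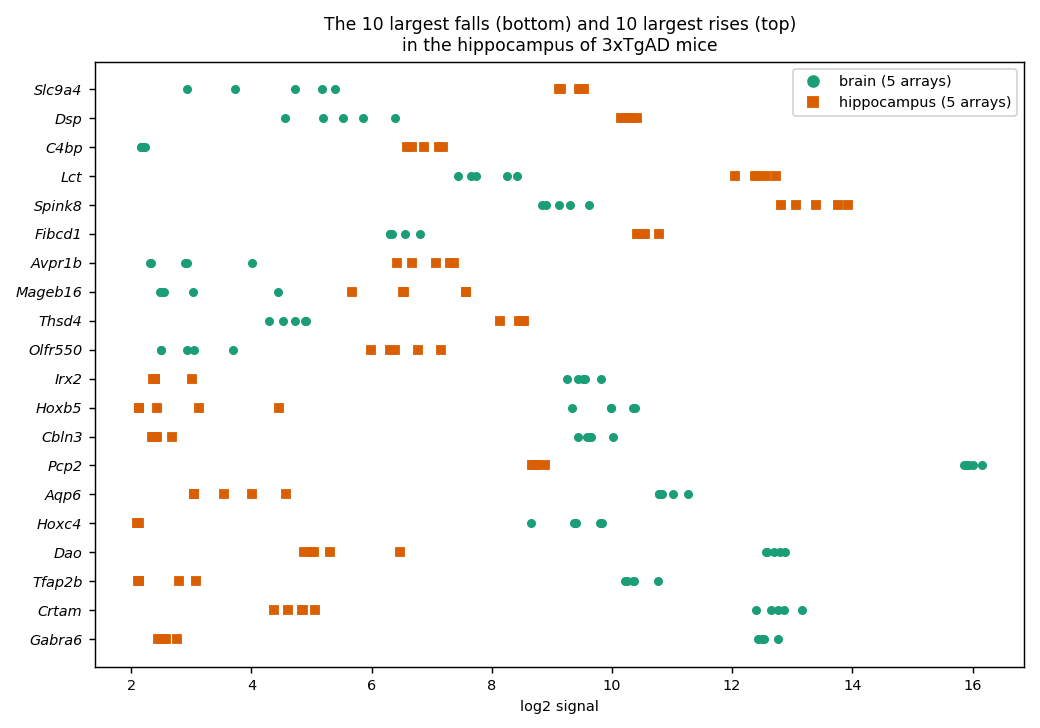
Log2 signal (horizontal axis) of each of the 5 hippocampi (orange squares) and 5 brains (green circles) of 3×TgAD mice for the 10 named genes with the largest fitted rise and the 10 with the largest fitted fall. Genes at background throughout a tissue have only a bound, so their rank is not established. The genes were picked among those whose tissues do not overlap, which were 5242 higher and 6966 lower in the hippocampus of 36717 tested. Gabra6 lies near the floor of the scale in every hippocampus.

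The 10 largest falls included genes of the cerebellum and patterning factors of the hindbrain. Gabra6, the GABA-A subunit of cerebellar granule cells, read 2.52, 2.53, 2.45, 2.58 and 2.76 in the hippocampi, none well above background, and 12.77, 12.43, 12.52, 12.50 and 12.52 in the brains. It was at least 281-fold lower in the hippocampus (adjusted p = 9.31e-06). Tfap2b, Hoxb5, Cbln3, Irx2 and Hoxc4 were likewise not well above background there and were at least 62.9-, 48.3-, 38.0-, 34.3- and 31.9-fold lower. Their place among the 10 rests on fitted changes against signal at background and is not established. Car8, named after its value was seen, was well above background in all 5 hippocampi and 5 brains. It was 87.4-fold lower in the hippocampus and is not among the 10. Crtam fell by 8.02 (SE 0.15), Dao, which degrades D-serine, by 7.36 (SE 0.23), Aqp6 by 7.29 (SE 0.21) and Pcp2 of Purkinje cells by 7.23 (SE 0.08). The striatal list had a median change of -2.74, and in it the adenosine receptor Adora2a fell by 3.57 (SE 0.19) and the opioid precursor Penk by 3.16 (SE 0.15). The hypothalamic peptides Avp, Pmch, Oxt and Hcrt fell by 4.80, 4.70, 4.67 and 4.62 (SE 0.67, 0.23, 0.85 and 0.38). The brain of mouse 1 was low in Avp (7.48 against 10.12 to 10.79 in the other 4), Oxt (7.54 against 10.85 to 12.75) and Hcrt (10.63 against 12.28 to 13.10). The difference within mouse 1 was -1.94 for Avp and -1.26 for Oxt. In the other 4 mice it was -6.20 to -4.62 and -6.99 to -4.58. The dopamine transporter Slc6a3 fell by 4.80 (SE 0.16). The serotonin and noradrenaline transporters Slc6a4 and Slc6a2 were well above background in the brain only and were at least 5.63- and 4.45-fold lower in the hippocampus. Of 7 thalamic genes, 1 rose and 5 fell, with the glutamate transporter Slc17a6 lowest (-3.49, SE 0.24).

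Receptor subunits differed in both directions. Of 20 glutamate receptor genes, 11 rose and 7 fell (median change 0.33), and with the slide as a random block 7 rose and 7 fell. The NMDA receptor subunits Grin2b and Grin2a rose by 2.24 (SE 0.07) and 2.02 (SE 0.08) and the AMPA subunit Gria1 by 1.61 (SE 0.06), while Gria4 fell by 1.79 (SE 0.09). All 11 GABA-A genes passed the test, 5 higher and 6 lower (median change -0.41). Gabra5, the extrasynaptic subunit of CA1, rose by 1.75 (SE 0.08) and Gabrb1 by 1.32 (SE 0.09), and Gabrd fell by 2.14 (SE 0.06). Of 12 pan-neuronal and synaptic genes, 7 rose and 2 fell (median change 0.35; 5 and 1 with the slide as a random block), with the excitatory genes Camk2a (1.91, SE 0.08), Slc17a7 (1.74, SE 0.16) and Nrgn (0.96, SE 0.10) rising and the neurofilament Nefm falling by 1.19 (SE 0.06). The medians of the glutamate receptor and pan-neuronal lists were -0.04 and -0.06 with the slide as a fixed block. Nrgn turned to -0.39 with the slide as a fixed block.

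Of 13 interneuron genes, 3 rose and 7 fell (median change -0.45). The calcium-binding Pvalb fell by 2.58 (SE 0.09), the peptide gene Crh by 1.98 (SE 0.06) and Calb2 by 1.77 (SE 0.43), and Nos1 rose by 1.31 (SE 0.26). Of 17 immediate early genes, 6 rose and 4 fell (median change 0.07), and with the slide as a random block 4 rose and none fell. Ptgs2 rose by 1.70 (SE 0.12) and the growth factor Bdnf by 1.29 (SE 0.10), and Fos fell by 1.53 (SE 0.11), with an adjusted p of 0.194 for Fos under the random slide block. Nr4a3 was well above background in 2 hippocampi and no brain. Of 9 genes of adult neurogenesis, none rose and 2 fell, beside 17.5% higher and 20.0% lower among all genes. Neurod1 fell by 2.27 (SE 0.09) and Dcx of immature neurons by 0.35 (SE 0.08), although Dcx was at 0.087 with the mean of a gene's probes. Which cells of the brain carry these transcripts was not tested.

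To ask whether the regional difference itself depended on genotype or sex, the difference within each mouse was compared between groups over all 15 mice. Against WT females, 8 genes passed the test in 3×TgAD females, 0.0218% of those tested (2546 at an unadjusted p under 0.05). Of the 8, 6 had a gene symbol and 5 of these were also detected throughout a tissue of either group, and these 5 are named. The WT hippocampi were on slide 2 and the WT brains on slide 4, so the slide and the genotype cannot be told apart in this contrast. Cst7 was the only gene of the glial and pathology lists among the 8. Its regional difference was 2.78 ± 0.04 (SD, n = 2) in 3×TgAD females and -1.38 ± 0.18 (SD, n = 3) in WT females, and the difference between them was 4.17 (SE 0.45, adjusted p = 0.0119). The Cst7 level in WT mice was 4.74 to 4.94 in the hippocampus, with 2 of 3 arrays well above background, and 6.11 to 6.31 in the brain. In 3×TgAD males its regional difference was -0.18 ± 0.84 (SD, n = 3), and the females differed from them by 2.96 (SE 0.45, adjusted p = 0.204), which did not pass the test. In 3×TgAD-BKO mice it was 0.91 ± 0.75 (SD, n = 2) in females and 0.18 ± 0.06 (SD, n = 3) in males, against which 3×TgAD differed by 0.76 (SE 0.32, adjusted p = 0.73).

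No other glial or pathology gene passed this test against WT females. The difference from WT was 0.54 (SE 0.18, adjusted p = 0.534) for Trem2, 0.57 (SE 0.21, 0.589) for Tyrobp, 1.27 (SE 0.51, 0.639) for Itgax and 0.47 (SE 0.24, 0.801) for C4b. For Gfap, whose regional difference was 0.61 ± 0.56 (SD, n = 2) in 3×TgAD and 0.50 ± 0.65 (SD, n = 3) in WT females, it was 0.11 (SE 0.41, adjusted p = 1.0). The regional difference of Tgfb2 was 2.18 ± 0.29 in WT (SD, n = 3), 0.36 below that of 3×TgAD females (SE 0.30, adjusted p = 0.977). A p that misses the threshold with 2 mice against 3 does not show that the genotypes are alike.

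**Figure D5:**
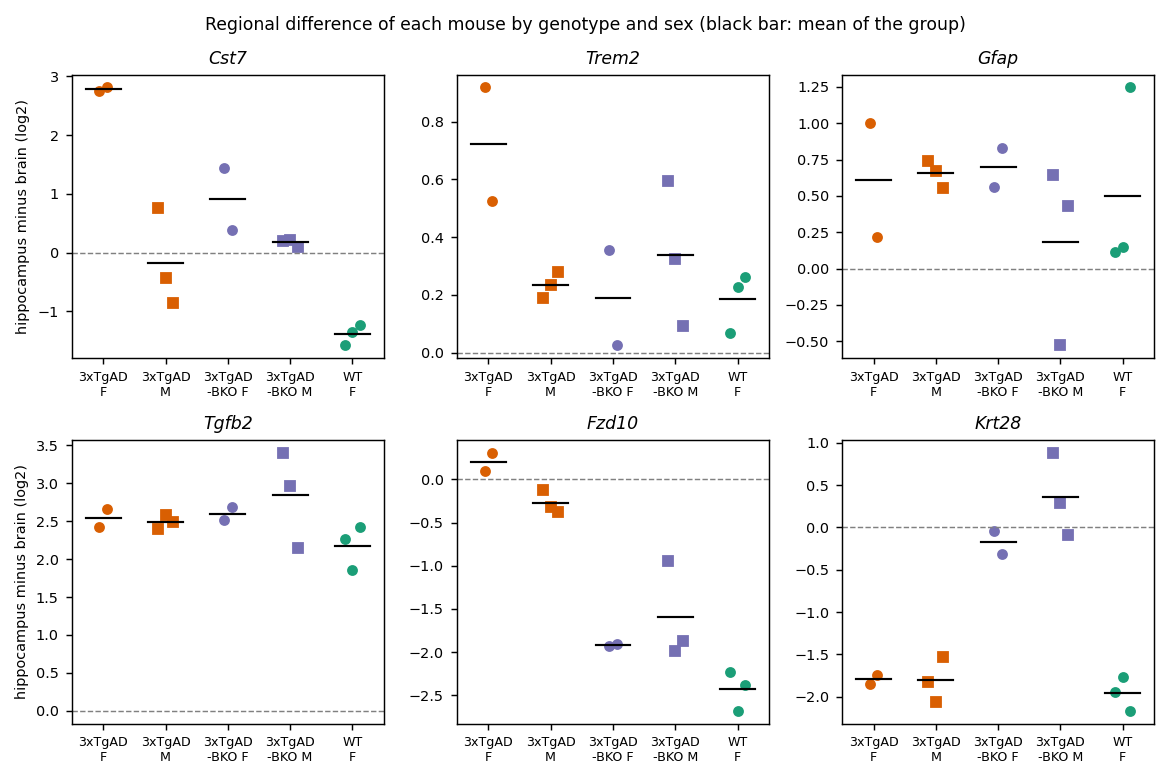
Regional difference (hippocampus minus brain, log2, vertical axis) of each mouse for 6 genes by genotype and sex (F, circles; M, squares), with a black bar for the mean of the group. Cst7 is high in the 2 3×TgAD females, Fzd10 lies near 0 in 3×TgAD mice only, Krt28 is lower in the hippocampus of 3×TgAD and WT mice but not of 3×TgAD-BKO mice, Trem2 is highest in a 3×TgAD female, and the groups overlap for Gfap and Tgfb2.

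Fzd10, a Wnt receptor, differed from both other genotypes. It was at 9.42 ± 0.11 in the hippocampus of 3×TgAD females (SD, n = 2) and 8.62 ± 0.30 in that of males (SD, n = 3), against 6.32 ± 0.26 in WT females (SD, n = 3) and 6.45 ± 0.07 and 6.44 ± 0.54 in female and male 3×TgAD-BKO mice (SD, n = 2 and 3). A transcript without a symbol, TC1586030, chosen after its values were seen, also passed both tests (adjusted p = 0.0162 against WT and 0.00668 against 3×TgAD-BKO), but in 3×TgAD it was well above background in the 5 brains and no hippocampus, so that no size is given. Brain levels of Fzd10 were nearer to each other, from 8.03 to 9.22 over these groups' means. The regional difference was 2.63 above that of WT females (SE 0.27, adjusted p = 0.0114) and 1.72 above that of 3×TgAD-BKO mice (SE 0.19, adjusted p = 0.0262). The females of the 2 transgenic genotypes shared slides 1 and 3, and there it was 0.20 ± 0.15 (SD, n = 2) in 3×TgAD and -1.92 ± 0.02 (SD, n = 2) in 3×TgAD-BKO mice.

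Against 3×TgAD-BKO mice, 7 genes passed the test in all, 0.0191% of those tested (2398 at an unadjusted p under 0.05), and of the 2 that had a symbol and were well above background, the other was Krt28, a keratin (difference -1.89, SE 0.19, adjusted p = 0.0178). Its level in the brain was 7.98 in female and 7.93 in male 3×TgAD mice and 5.93 and 5.82 in 3×TgAD-BKO mice, while the hippocampi of these groups lay at means of 5.76 to 6.18. Krt28 was at 7.86 in WT brains, near 3×TgAD. Between female and male 3×TgAD mice, 1 gene passed the test, 0.00272% of those tested (1679 at an unadjusted p under 0.05). This was Fscb, a sperm flagellum gene, well above background only in the brains of the 2 females, at a mean of 4.97, and it passed the test against males (adjusted p = 0.0258) and WT females (0.0013). Olfr203, an odorant receptor, and Cyp2c66, a cytochrome P450, were well above background only in the 3 WT brains, at 6.46 ± 0.76 and 6.33 ± 0.38 (SD, n = 3), and gave the other calls named against WT (adjusted p = 0.0209 and 0.00264). With all other arrays of these 3 genes at background, the size of their differences was not measured.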

How the data were processed

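RNA of 15 mice was measured on 30 arrays (62976 spots, 4 slides). The authors deposited, per array, a Feature Extraction (12.0.3.1) file whose processed intensity is background-subtracted and detrended, without normalization between arrays, and a table of scores. Compared with the scanner values, each deposited score was the Z score of the log10 processed signal within its array (largest difference 0.00502), so that its direction is that of the signal. Without 3671 control spots, 55681 probes remained, 28331 with a symbol. Quantile normalization was applied to the log2 values of all 30 arrays, and each gene was represented by its brightest probe on average, as in the methods (36717 genes and transcripts, 21368 with a symbol). No spot was saturated. For dim genes the background sets the limit, and for all others precision depends on how many mice there were.

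Tests were made in R 4.3.3 with limma 3.58.1 and statmod 1.5.0 (lmFit, eBayes; two-sided, Benjamini-Hochberg over all genes, threshold 0.05), with the mouse as a fixed block for the tissues, and on the difference of each mouse, with genotype and sex as 1 factor, between groups. The p-values measure the spread between these mice. The labels give 1 mouse number to 1 array of each tissue. Over 19747 genes, the departure of an array from its group's mean had a median correlation with the other array of its mouse of 0.0989 (-0.174 to 0.236, 7 of 15 above 0.1) and of -0.0453 with arrays of other mice. For 15 genes an array was missing, and the fit left out that value. A gene not well above background on any array of a tissue has a bound ("at least"), the mean of the brighter tissue against the lowest signal well above background.

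Genes named are 21 glial and pathology genes, the 10 largest rises and falls with no overlap, up to 4 called members of each list, and called differences between groups, unless said otherwise, and some items are not reported here. The members, gene lists and tests were chosen with earlier results of these data known. Clec7a, Ighm, Ighg2c and Igkc had no matching probe and were not analysed here. No coordinates are given, since the annotation of the array is on mm9. Alternatives were the scaling, background correction (normexp, offset 50), scores, dim probes, probe mean, slide, sex, the methods' t-test, and each mouse left out. The tests were checked on simulated data.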

Additional observations from a re-analysis of the deposited data

Results flagged for a closer look

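In 217 sets of 5 values (a gene or list in the 5 3×TgAD mice), 1 mouse stood far from the others in 18, where chance alone gives about 1 in 20. Mouse 4 was that animal in 8. It was apart in the level of Ttr in the hippocampus (18.28, next 14.44), in the median regional differences of the choroid plexus (2.78, next -1.83) and MHC class II lists (0.70, next -1.70), and in the regional differences of Cd59a (0.046, next -1.29), Col1a2 (-0.49, next -1.77), Ltbp3 (-0.17, next -1.09), Nr4a3 (1.22, next 2.21) and Dao (-6.32, next -7.58).

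Mouse 1 was apart in the regional difference of C1qa (0.83, next 0.47) and in the median of the DAM and lysosome list (0.11, next -0.08). Mouse 2 was apart in S100a9 (-2.85, next -1.22) and in the blood and neutrophil list (-1.88, next -0.57), the interneuron list (-1.01, next -0.58) and Tgfb3 (-0.40, next -0.61). Mouse 3 was apart in Pdgfra (0.0046, next 0.32), Cyp2c66 (-0.92, next 0.030) and the TGF-beta list (-0.18, next -0.08), and mouse 5 in Mbp (0.67, next 0.37). Cyp2c66 was well above background in WT brains only, so its values in these mice are at background.

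The regional difference itself differed by test between 3×TgAD and WT females for Cst7 (4.17), Fzd10 (2.63), Olfr203 (4.28), Cyp2c66 (4.01) and Fscb (-3.43), between 3×TgAD and 3×TgAD-BKO mice for Krt28 (-1.89) and Fzd10 (1.72), and between female and male 3×TgAD mice for Fscb (-2.83). Olfr203, Cyp2c66 and Fscb were at background on all arrays of the contrast but those of 1 group's brains, so that their fitted differences are not measured sizes.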

How the results depend on the processing

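The count of 13744 genes was 12872 to 14688 with no replicate block (14285), quantile normalization of the 10 arrays, normexp, the deposited scores, the dim-probe filter, the mean of probes, all 15 mice, a trended robust variance and the methods' t-test after adjustment. It was 20386 with 75th percentile scaling, 17287 with the t-test unadjusted, 6944 and 5765 with the slide as a random and a fixed block, 7182 in the 3 males, 3678 with a change of at least 1 log2 unit, 0 by limma in the 2 females (10431 unadjusted) and 9937 to 12488 without each mouse in turn. The 8 calls against WT became 2 with the dim-probe filter, 34 with no replicate block, 13 with all 5 mice and sex as a covariate, and 12 to 228 without a mouse. The 7 against 3×TgAD-BKO became 3 with 75th percentile scaling, 3 with the filter, 33 with no replicate block and 1 to 147 without a mouse. The call between sexes became 0 with the filter (1060 unadjusted), 5 with no replicate block and 0 (without mouse 4, 1316 unadjusted) to 177 without a mouse. The counts rose most without mouse 1 (228 against WT, 177 between sexes), which leaves a group of 1 that is assumed to vary like the others. Of 144 named genes, 138 kept direction and call with 75th percentile scaling, 109 with the slide as a random block and 87 as a fixed block. In that last fit the change reversed for Gfap (-0.99), C4b (-0.37), C1qa (-0.28), Trem2 (-0.11), Tmem119 (-0.37), Cx3cr1 (-0.50), App (0.11), Cd3e (-1.08, past the threshold), Nkg7 (-0.071), Tgfb3 (0.89, past the threshold), S100b (0.57), Slc6a11 (0.78), Ccdc153 (-0.60), Selplg (-0.12), Lum (-0.65) and Nrgn (-0.39), with 75th percentile scaling for Apoe (0.44), in the scores for Apoe (0.19), App (0.058) and Mapt (0.088), all of them past the threshold, and with the mean of probes for Nkg7 (-0.11) and Dcx (0.087). The cause was not tested. The counts without mouse 4 in the lists were added after seeing the data.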
